A study of Mus musculus with 3 samples.

Results

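The imprinted Dlk1-Dio3 domain was followed through 6 of its genes, Dlk1, Meg3, Rtl1, Rian, Mirg and Dio3, out of 54532 genes in the deposited expression table. The members were chosen by their gene names, and the domain was taken up because Dio3 stood among the largest increases of PS19 Zbp1+- over PS19. That contrast therefore chose the domain, and its values are given as a description. All 6 names were found once each, on mouse chromosome 12 between 109452823 (start of Dlk1) and 110281097 (end of Dio3), in positions that match the GRCm38 assembly.

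Hippocampal RNA of 10-month-old C57BL/6 mice was sequenced in 3 libraries, 1 for each genotype. WT mice carry neither altered allele. PS19 mice carry a human mutant tau transgene under the mouse Prnp promoter and are a model of tau pathology. PS19 Zbp1+- mice carry that same transgene and 1 functional allele of Zbp1, a sensor of left-handed nucleic acids, so the transgene is shared by both PS19 groups. The labels give no sex and do not say whether animals were pooled. With 1 library per genotype there was no replicate check and no test could be made. Every difference compares libraries, and every interval covers counting error only.

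Imprinted genes are read from only 1 of the parental chromosomes. In this domain Dlk1, Rtl1 and Dio3 encode proteins and are read mainly from the paternal chromosome, whereas Meg3, Rian and Mirg are long noncoding RNAs of the maternal chromosome that host clusters of small nucleolar RNAs and microRNAs. A methylated control region between Dlk1 and Meg3 sets the parental pattern, and in the brain the domain is known for the very high level of Meg3 in neurons and for Dio3, which inactivates thyroid hormone.

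Bases before the start sites are printed for the genes that differed most between libraries (Dlk1 and Dio3) and for the gene that differed least (Meg3). The Dio3 window lies further from its RefSeq start than the others do from theirs, so the windows are described and not ranked by likeness. RefSeq sequence of GRCm38.p6 is printed for the 88 bases before the earlier of the RefSeq start and the start in the deposited table, with matches to 4 motifs in capitals. Motifs were chosen after the sequences had been seen.
Dlk1, chr12:109452735-109452822, plus strand: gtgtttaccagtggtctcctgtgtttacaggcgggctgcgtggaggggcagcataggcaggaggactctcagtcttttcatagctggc
Meg3, chr12:109540908-109540995, plus strand: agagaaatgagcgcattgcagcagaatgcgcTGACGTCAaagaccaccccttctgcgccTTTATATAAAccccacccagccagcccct
Dio3, chr12:110278980-110279067, plus strand: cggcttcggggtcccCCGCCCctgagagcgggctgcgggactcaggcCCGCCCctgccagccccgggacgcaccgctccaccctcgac

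The motifs searched on both strands were the cAMP response element TGACGTCA, the TATA box TATAAA, the CCAAT box CCAAT and the GC box GGGCGG. They occur in 1.07%, 5.04%, 17.0% and 23.2% of the 88-base windows of 32851 promoters. The Meg3 window held the cAMP response element 57 bases before the start, and TATAAA 25 bases before it, overlapping a reverse-strand match. The Dio3 window held 2 reverse-strand GC boxes, 10 CpG dinucleotides and a GC content of 79.5%. As many CpG dinucleotides occur in 14.8% of all windows. Those windows end at the RefSeq start, whereas the Dio3 window ends 162 bases before it, so the positions differ. The Dio3 bases nearer to its RefSeq start were not searched. The Dlk1 window held none of the 4 motifs and 2 CpG dinucleotides, which is the median of all windows. A match describes letters and not binding. Dio3 has its RefSeq start 162 bases inside the start given in the deposited table, and Rtl1, Rian and Mirg are not shown.

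The domain's microRNAs cannot be read from these libraries, but they tie its noncoding RNAs to Rtl1. RefSeq lists 58 hairpins between Dlk1 and Dio3, of which 14 lie in Mirg on the same strand and 6 lie inside Rtl1 on the opposite strand. Mature sequences of 5 of the microRNAs opposite to Rtl1 are shown first, because such a microRNA is perfectly complementary to the Rtl1 transcript, followed by a pair that shares a seed. Capitals mark the seed, bases 2 to 8.
miR-431-5p: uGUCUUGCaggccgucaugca
miR-433-3p: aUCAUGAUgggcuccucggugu
miR-127-3p: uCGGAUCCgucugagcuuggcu
miR-434-3p: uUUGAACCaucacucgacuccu
miR-136-5p: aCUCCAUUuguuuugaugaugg
miR-379-5p: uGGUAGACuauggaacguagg
miR-1193-5p: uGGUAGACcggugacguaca

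The 113 mature names of the domain held 104 different seeds, and 9 seeds were shared by 2 names, as GGUAGAC is by miR-379-5p and miR-1193-5p. The 5 microRNAs opposite to Rtl1 had 5 different seeds. The table lists 67 microRNA genes in the interval, and 29 of them had reads, 70 in sum for WT, 93 for PS19 and 72 for PS19 Zbp1+-. All 7 microRNA genes overlapping Rtl1 were listed at 0 reads in each library. A long-RNA library keeps few RNAs of this size, so these counts are no measure of the mature microRNAs.

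Levels are given as FPKM, fragments per kilobase scaled to the size of the library, which can be compared between genes. Whole reads were recovered from them, 16746085 (WT), 16400328 (PS19) and 17109734 (PS19 Zbp1+-). A difference is that of log2(FPKM + 1), which understates the change of genes at low level, and it counts as called from 1 log2 unit, which is 2-fold. A read ratio is the ratio of reads per library size, with its exact (Clopper-Pearson) 95% interval. The library size is the one implied by the FPKM values. The recovered reads were 0.971 (WT), 0.949 (PS19) and 1.08 (PS19 Zbp1+-) times that size. Scaling by total reads would therefore lower every read ratio of PS19 Zbp1+- to another library, which the intervals do not cover. Reads of Zbp1 numbered 5 (WT), 91 (PS19) and 0 (PS19 Zbp1+-). Set at a floor of 3 reads, PS19 Zbp1+- was at least 27.8-fold lower than PS19, although its label names a heterozygote. The PS19 Zbp1+- library stands apart in 3 ways. Of genes with 8 to 12 reads in both other libraries, 16.0% had no read in it, against 2.14% for WT and 0.410% for PS19. The Y-linked Uty, Kdm5d, Eif2s3y and Ddx3y had 268 to 711 reads in PS19 Zbp1+- and 0 in both others, whereas Xist had 0 reads in PS19 Zbp1+-, 11062 in WT and 13350 in PS19. The summed FPKM of 10 choroid plexus markers was 3425 (WT), 2181 (PS19) and 25.8 (PS19 Zbp1+-), where Slc4a5 was at 0. The part of these differences in the results on the domain was not tested, and the sex-linked difference and the genotype cannot be told apart.

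Dio3 encodes the selenium-containing deiodinase that inactivates thyroid hormone, and it was the member that differed most. The gene (ENSMUSG00000075707, 110279068 to 110281097, plus strand) spans 2030 bases with at most 1 exon per transcript and overlaps no other annotated gene. Its FPKM was 3.91 (WT), 1.20 (PS19) and 13.01 (PS19 Zbp1+-), from 137, 42 and 418 reads. PS19 was thus the lowest and PS19 Zbp1+- the highest, and the counting intervals of the 3 levels (3.28 to 4.62, 0.863 to 1.62 and 11.8 to 14.3 FPKM) did not overlap. The read ratio of PS19 Zbp1+- to PS19 was 10.9 (7.90 to 15.3) and the difference was 2.67 log2 units, which is what chose the domain. Dio3 stood at rank 14 of 15212 genes from the largest increase downward in that comparison, and at rank 3 of 12772 protein-coding genes, behind the Y-linked Ddx3y and Eif2s3y. Its nearest neighbours in rank had few reads: mt-Ts1 just above had a difference of 2.70 from 6 reads against 0, and Snord98 just below had 2.63 from 11 reads against 1. Among genes with at least 50 reads in 1 or both of these libraries Dio3 was at rank 5 of 13227. In whole tissue, fewer cells of a type and less RNA per cell cannot be told apart, here and in the comparisons that follow.

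Neither comparison with WT was used to choose the domain, but each shares a library with the contrast that was. That choice favours a gene low in PS19 and high in PS19 Zbp1+-, so the Dio3 values against WT are descriptions too. Dio3 was lower in PS19 than in WT, with a read ratio of 0.306 (0.211 to 0.435) and a difference of -1.16. It ranked 14894 of 15013 genes, near the lowest. PS19 Zbp1+- was not at the WT level but above it, with a read ratio of 3.33 (2.74 to 4.06) and a difference of 1.51. Its neighbour Dio3os is a noncoding RNA read in the opposite direction from a start 0.9 kb away. Dio3os had 17 (WT), 9 (PS19) and 41 (PS19 Zbp1+-) reads, in the same order as Dio3. Its read ratio of PS19 Zbp1+- to PS19 was 4.98 (2.38 to 11.6), that of PS19 to WT was 0.528 (0.207 to 1.25), an interval that holds 1, and that of PS19 Zbp1+- to WT was 2.63 (1.46 to 4.94).

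Dlk1, a membrane protein of the Delta-like family that acts on Notch signalling and on precursor cells, lies at the other end of the domain, 826.2 kb from the start of Dio3. The gene (ENSMUSG00000040856, 109452823 to 109463336, plus strand, 5657 exonic bases) overlaps no other. Its FPKM was 2.64 (WT), 2.25 (PS19) and 8.89 (PS19 Zbp1+-), from 258, 220 and 796 reads. PS19 Zbp1+- was high and the other libraries were close to each other. The read ratio of PS19 Zbp1+- was 3.95 (3.40 to 4.61) against PS19 and 3.36 (2.92 to 3.89) against WT, with differences of 1.61 and 1.44. The ratio of PS19 to WT was 0.851 (0.708 to 1.02), an interval that holds 1. Dlk1 ranked 126 of 15212 genes in the comparison with PS19, and 169 of 14737 in that with WT, where Dio3 ranked 151. Dio3 and Dlk1 were in nearly the same proportion in WT and PS19 Zbp1+-, where the FPKM of Dio3 was 148% and 146% of that of Dlk1. In PS19 it was 53.2%, with Dio3 low and Dlk1 near its WT level.

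Rtl1 is a protein-coding gene derived from a retrotransposon, known for its role in the placenta and in muscle, and it was the lowest of the members. The gene (ENSMUSG00000085925, 109589193 to 109600330, minus strand) has 6358 exonic bases. Its FPKM was 1.46 (WT), 0.701 (PS19) and 1.43 (PS19 Zbp1+-), from 160, 77 and 144 reads. PS19 was low, and the other libraries did not differ beyond counting error, with a read ratio of PS19 Zbp1+- to WT of 0.981 (0.778 to 1.24). The read ratio of PS19 to WT was 0.480 (0.361 to 0.634) and that of PS19 Zbp1+- to PS19 was 2.04 (1.54 to 2.73). On the log2(FPKM + 1) scale these were -0.53 and 0.52, which were not called. At this level the pseudocount of 1 is about as large as the value itself. Whether the libraries keep strand is not stated, so reads of Rtl1 and of the noncoding RNA that runs opposite to it cannot be told apart.

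**Figure D1:**
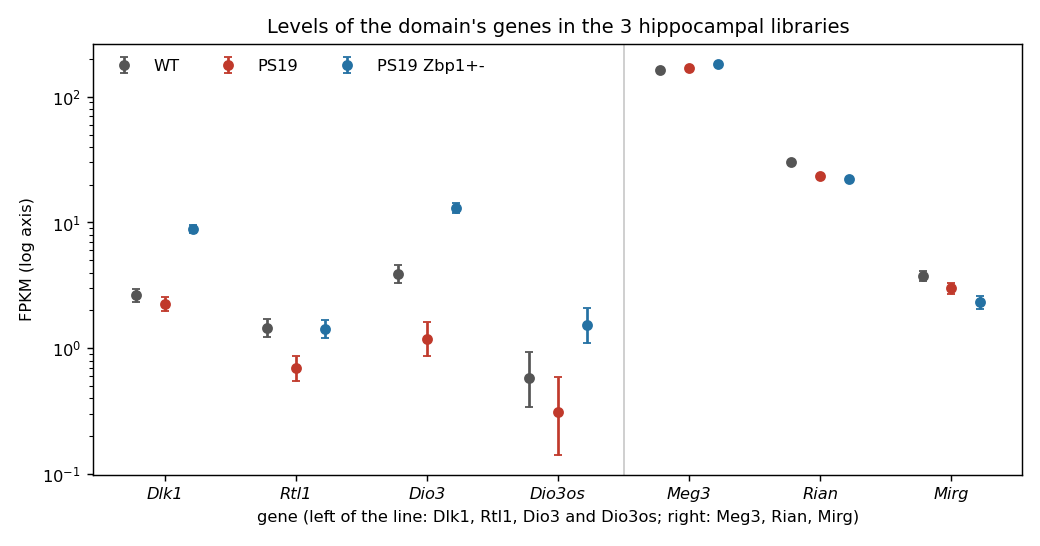
Level of each member and of Dio3os in FPKM (log axis) in the WT, PS19 and PS19 Zbp1+- libraries, with 1 point per library and bars for the exact Poisson 95% counting interval. Dlk1 and Dio3 are highest in PS19 Zbp1+-, at 8.89 and 13.01, while Meg3 stays between 164 and 182.

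Meg3 is the most abundant RNA of the domain and a nuclear noncoding RNA of neurons. The gene (ENSMUSG00000021268, 109541001 to 109571726, plus strand) starts 88.2 kb from Dlk1 and has 18089 exonic bases. Its FPKM was 164 (WT), 169 (PS19) and 182 (PS19 Zbp1+-), from 51092, 52872 and 52018 reads. The 3 levels lay close together, the most distant read ratio being that of PS19 Zbp1+- to WT, 1.11 (1.10 to 1.12). At this depth counting error is small, and what remains depends on scaling: the difference of PS19 Zbp1+- from PS19 was 0.10, but -0.18 when each library was rescaled to the same sum and -0.084 when scaled by total reads. No direction is therefore given for Meg3.

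Rian (ENSMUSG00000097451, 109603940 to 109661716, plus strand, 18234 exonic bases) is the host of a cluster of small nucleolar RNAs. It had an FPKM of 30.1 (WT), 23.5 (PS19) and 22.1 (PS19 Zbp1+-), from 9458, 7407 and 6373 reads. WT was the highest and both PS19 libraries were lower, with read ratios to WT of 0.782 (0.758 to 0.806) and 0.735 (0.711 to 0.758). Mirg (ENSMUSG00000097391, 109729764 to 109749460, plus strand, 7292 exonic bases) is the microRNA-containing transcript further along. It had an FPKM of 3.73 (WT), 3.01 (PS19) and 2.33 (PS19 Zbp1+-), from 469, 380 and 269 reads. It had the same order as Rian, with read ratios to WT of 0.809 (0.704 to 0.928) and 0.625 (0.536 to 0.728). None of these differences reached 1 log2 unit, and the signs of Rian and Mirg were the same under each of the 5 alternative pseudocounts and scalings. The level of Rian was 18.4% of that of Meg3 (WT), 13.9% (PS19) and 12.2% (PS19 Zbp1+-), a comparison within each library that no scaling of the library moves. Mirg was at 12.4%, 12.8% and 10.6% of Rian.

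The members were also summed by class, in which the values of PS19 Zbp1+- against PS19 include the Dio3 difference that chose the domain. The summed FPKM of Dlk1, Rtl1 and Dio3 was 8.01 (WT), 4.15 (PS19) and 23.3 (PS19 Zbp1+-), which was 3.90%, 2.08% and 10.2% of the 6 members together. The summed FPKM of Meg3, Rian and Mirg was 197, 196 and 206. By reads the protein-coding sum was 4.38 times (3.88 to 4.94) as high in PS19 Zbp1+- as in PS19, and 2.67 times (2.41 to 2.95) as high as in WT. Rtl1 did not share this, with its ratio to WT of 0.981. The read ratio of the noncoding sum lay between 0.992 and 1.06 in the 3 comparisons on the deposited scale. These sums rest mainly on Meg3 on the noncoding side and on Dlk1 and Dio3 on the coding side, and the table does not separate the parental alleles, so no imprinting state was measured.

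**Figure D2:**
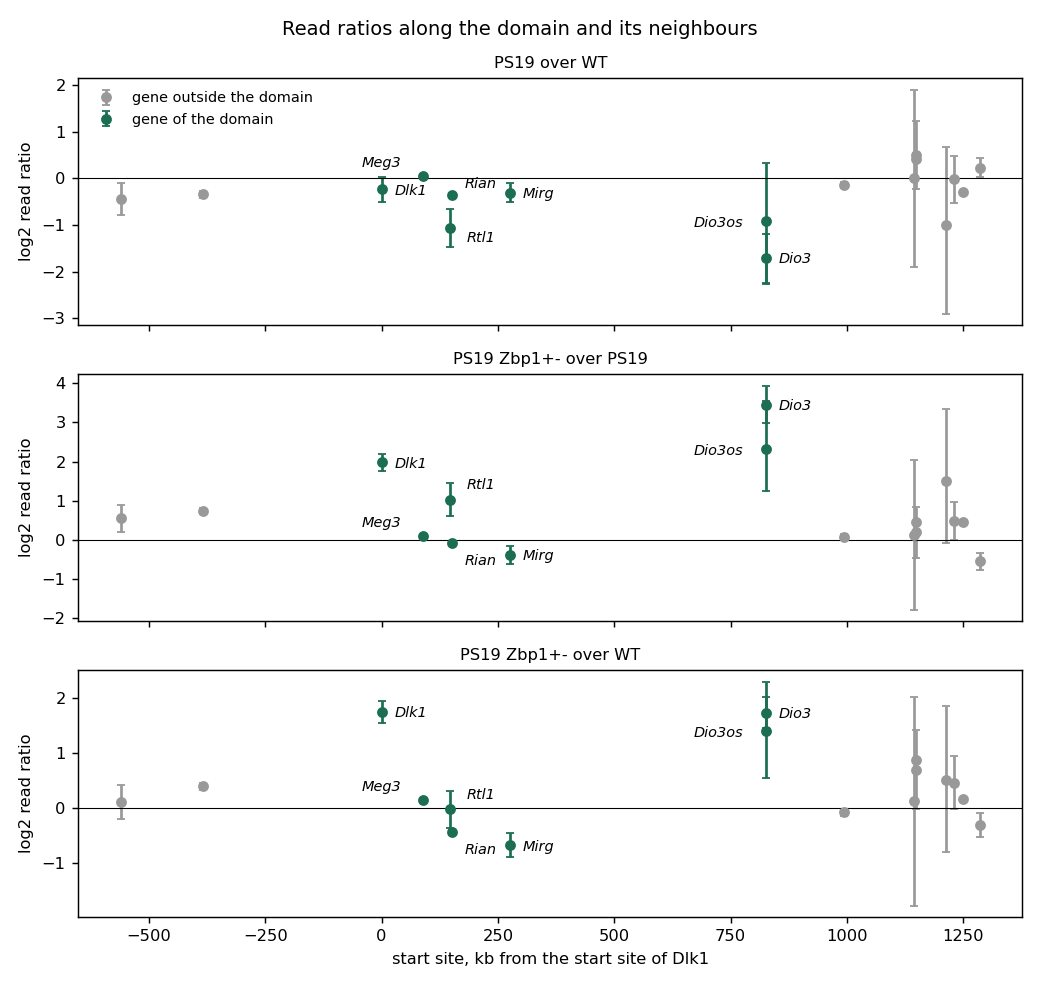
log2 of the read ratio of each library pair against the distance of each gene's start site from that of Dlk1 in kb, for members and Dio3os (green) and genes within 500 kb outside (grey), with exact 95% counting intervals. In PS19 Zbp1+- over PS19, Dlk1 and Dio3 at the outer ends stand above the neighbours with well-determined ratios. Rtl1 (read ratio 2.04) and Dio3os (4.98) also lie above 0, Meg3 and Rian lie near 0, and Mirg lies below it, at a read ratio of 0.773 (0.659 to 0.906).

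Counts of called members are read against the share called over all genes. All 6 members reached the FPKM minimum of 1 in at least 1 library of each comparison. In PS19 against WT, 1 member (Dio3) was called lower and 0 were called higher, where 1.17% of all 15013 genes tested were called lower, 3.42% higher and 4.60% in either direction. Regardless of size, 5 members were lower and 1 was higher, with a median difference of -0.29 against -0.02 over all genes. In PS19 Zbp1+- against PS19, 2 members (Dlk1 and Dio3) were called higher and 0 lower, where 3.47% of 15212 genes were called higher, 6.84% lower and 10.3% in either direction. Since this contrast chose the domain, nothing is read from that count. In PS19 Zbp1+- against WT, 2 members (again Dlk1 and Dio3) were called higher and 0 lower, where 2.86% of 14737 genes were called higher, 3.99% lower and 6.85% in either direction. The median difference of the members there was 0.07, against 0.01 over all genes. Each count against WT includes Dio3 and shares a library with the contrast that chose the domain, so these counts are descriptions as well. Higher genes made up 33.7% of those called in PS19 Zbp1+- against PS19, but 18.3% when libraries were rescaled to the same sum and 22.5% when scaled by total reads. In PS19 Zbp1+- against WT the shares were 41.8%, 30.9% and 31.2%. Rescaling to the same sum moved the median of all genes in PS19 Zbp1+- against PS19 from 0.04 to -0.20, a shift under which Dio3 was still at 2.46 and Dlk1 at 1.38.

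**Figure D3:**
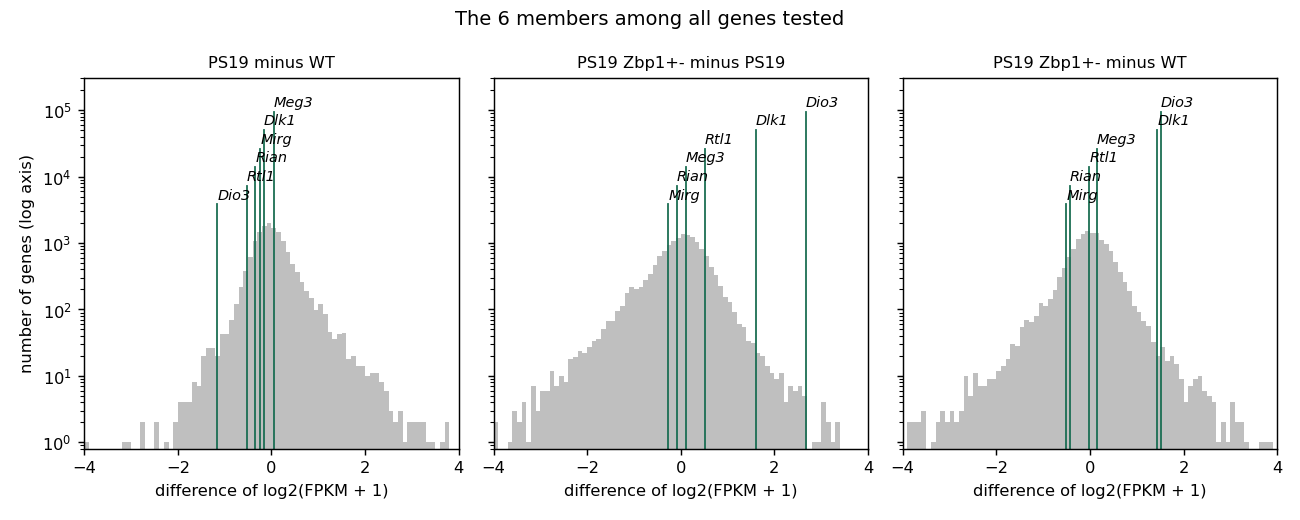
Histograms of the difference of log2(FPKM + 1) over all genes tested in each comparison (log axis for the number of genes, 6, 10 and 14 genes beyond 4 units not drawn), with a green line at each member, whose height carries no meaning. Dio3 lies in the lower tail at -1.16 in PS19 minus WT and in the upper tail at 2.67 and 1.51 in the other panels.

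Other transcripts of the interval were sparse. It held 118 annotated genes, of which 52 had reads and 33 reached an FPKM of 1 in some library. Nearly all of its reads, 61765 (WT), 61242 (PS19) and 60255 (PS19 Zbp1+-), fell on the members. The noncoding RNA Gm26945 had 52, 71 and 64 reads, in the order WT, PS19 and PS19 Zbp1+-. The small nucleolar RNAs had 4 of 23 genes with reads, among which Gm23600, which lies inside Rian, had 6, 33 and 17. It was highest in PS19, where its host Rian was not.

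No gene of FPKM 1 or more within 500 kb outside the domain was called in any comparison. The nearest upstream gene with an FPKM of at least 1 was Begain, a synaptic scaffold gene 384.6 kb away, at an FPKM of 41.2 (WT), 32.4 (PS19) and 54.1 (PS19 Zbp1+-). Its read ratio of PS19 Zbp1+- to PS19 was 1.67. Downstream, Ppp2r5c, a regulatory subunit of a protein phosphatase 166.0 kb away, was at 25.4, 22.9 and 24.0 FPKM, with a ratio of 1.05. The other neighbours had ratios of PS19 Zbp1+- to PS19 from 0.688 for Wdr20 to 1.46 for Wdr25, apart from Gm17111, which had 10, 5 and 13 reads.

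By the distance between log2(FPKM + 1) profiles centred over the 3 libraries, the genes most like Dio3 among 13403 were Gm23935, Grp, Gm10123, Gm8186 and Kcng1, at distances of 0.11 to 0.45. Grp, a neuropeptide gene, had an FPKM of 16.9 (WT), 6.34 (PS19) and 36.6 (PS19 Zbp1+-). Kcng1, a potassium channel subunit, had 10.4, 5.94 and 27.8. Gm23935, Gm10123 and Gm8186 are predicted genes, the second a processed pseudogene. Gm23935, the nearest, is listed as a microRNA gene of 57 bases, at 5188, 2570 and 15273 FPKM. A long-RNA library keeps few RNAs of that size, so its level is no measure of a mature microRNA. Dlk1 was at rank 43 from Dio3, with a distance of 0.84, and Rtl1 at rank 1989. With 3 libraries such a likeness is a description of 3 numbers. The genes nearest to Meg3 were Mlst8, Hecw1, Bcdin3d, Ecm1 and Ednra, all nearly level between libraries.

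Genes that handle thyroid hormone, the substrate of Dio3, did not share a direction. Of 24 listed genes 22 could be compared. In PS19 Zbp1+- against PS19, 2 were called higher and 3 lower, where 3.47% of all genes were called higher and 6.84% lower. The list's median of 0.13 turned to -0.14 when libraries were rescaled to the same sum. In PS19 against WT 0 of 22 were called, where 4.60% of all genes were, so the count is near the background. Dio2, which encodes the deiodinase that activates the hormone, was at an FPKM of 9.30 (WT), 9.53 (PS19) and 7.99 (PS19 Zbp1+-). The receptor gene Thra was at 156, 123 and 202, and neither of these genes was called. Crym, whose product binds the hormone in the cell, was at 71.2, 37.5 and 105, with a difference of 1.47 between PS19 Zbp1+- and PS19, and Rxrg, a partner receptor gene, was at 2.35, 1.66 and 6.82, with 1.55. Both had the order of Dio3, lowest in PS19 and highest in PS19 Zbp1+-. Ttr, the carrier made by the choroid plexus, was at 3036, 1842 and 7.05, with a difference of -7.84, and it is 1 of the 10 choroid plexus markers described above, all called lower in PS19 Zbp1+-. Sult1a1, a sulfotransferase gene, and Hr, a corepressor gene, were the other lower ones, at -1.25 and -1.11.

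In the Notch and Delta-like list, to which Dlk1 is related, 4 of 19 genes were called higher and 1 lower in PS19 Zbp1+- against PS19. Over all genes 3.47% were called higher and 6.84% lower. The list's median of 0.12 turned to -0.065 when rescaled to the same sum. The Notch target gene Hes5 had an FPKM of 3.83 (WT), 1.23 (PS19) and 5.98 (PS19 Zbp1+-), and Hes1 had 8.88, 5.91 and 15.6. Dtx1 had 18.1, 15.5 and 34.7, and Nrarp 2.56, 1.34 and 3.82. All 4 were lowest in PS19 and highest in PS19 Zbp1+-. Rbpj, the transcription factor of the pathway, was called lower, at 2.02, 2.69 and 0.690, and it has close copies in the genome that can share its reads. Dlk2, the closest relative of Dlk1, was at 18.8, 9.50 and 13.3 and was not called. In PS19 against WT only Hes5 of 20 genes was called, lower at -1.11, and in PS19 Zbp1+- against WT 0 of 20 were called. Over all genes 4.60% and 6.85% were called in these comparisons.

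Other imprinted genes, which lie outside the domain, were compared as the nearest relatives by regulation. In PS19 Zbp1+- against PS19, 4 of 34 were called higher and 1 lower, where 3.47% of all genes were called higher and 6.84% lower. The list's median of 0.20 was 0.0077 when rescaled to the same sum. Ndn, a neuronal gene of the Prader-Willi region, was at an FPKM of 44.1 (WT), 33.4 (PS19) and 108 (PS19 Zbp1+-). Nnat, which encodes a small membrane protein of neurons, was at 187, 112 and 288, Impact at 73.6, 65.7 and 140, and Dcn, a matrix gene, at 11.3, 4.70 and 20.7. Dcn is also 1 of 6 meningeal fibroblast markers, of which the other 5 (Lum, Col1a1, Col1a2, Slc6a13 and Igf2) were lowest in PS19 Zbp1+-, as for Col1a2 at 1.75, 1.78 and 0.285. Ndn, Nnat and Impact are read from the paternal allele, Dcn is imprinted only in the placenta, and all 4 were lowest in PS19 and highest in PS19 Zbp1+-. Cdkn1c, a cell cycle inhibitor gene read from the maternal allele, was called lower, at 7.02, 6.58 and 1.24. In PS19 against WT 1 of 35 was called, Dcn, which was lower, and in PS19 Zbp1+- against WT 1 of 34 was called higher and 1 lower. These counts are near the shares of all genes called, 4.60% and 6.85%.

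The regulators of imprints and of Polycomb marks, such as Dnmt1 and Trim28, had 0 of 16 genes called in each comparison, which is near the shares of all genes called (4.60%, 10.3% and 6.85%). Among relatives of Rtl1 derived from retrotransposons, 1 of 10 was called in PS19 Zbp1+- against PS19, which is near the 10.3% of all genes. This was Rtl6, at an FPKM of 17.7 (WT), 13.4 (PS19) and 31.0 (PS19 Zbp1+-). The list's median of 0.36 was 0.16 when rescaled to the same sum. Abundant nuclear noncoding RNAs, the class of Meg3, had 2 of 12 called lower in PS19 Zbp1+- against PS19 and 0 higher. Over all genes 6.84% were called lower and 3.47% higher. Malat1 was at 71.9, 91.3 and 30.0, and Neat1 at 8.58, 18.8 and 2.78. Miat, another abundant RNA of neurons, was at 45.0, 42.1 and 45.4, and like Meg3 it was not called.

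**Figure D4:**
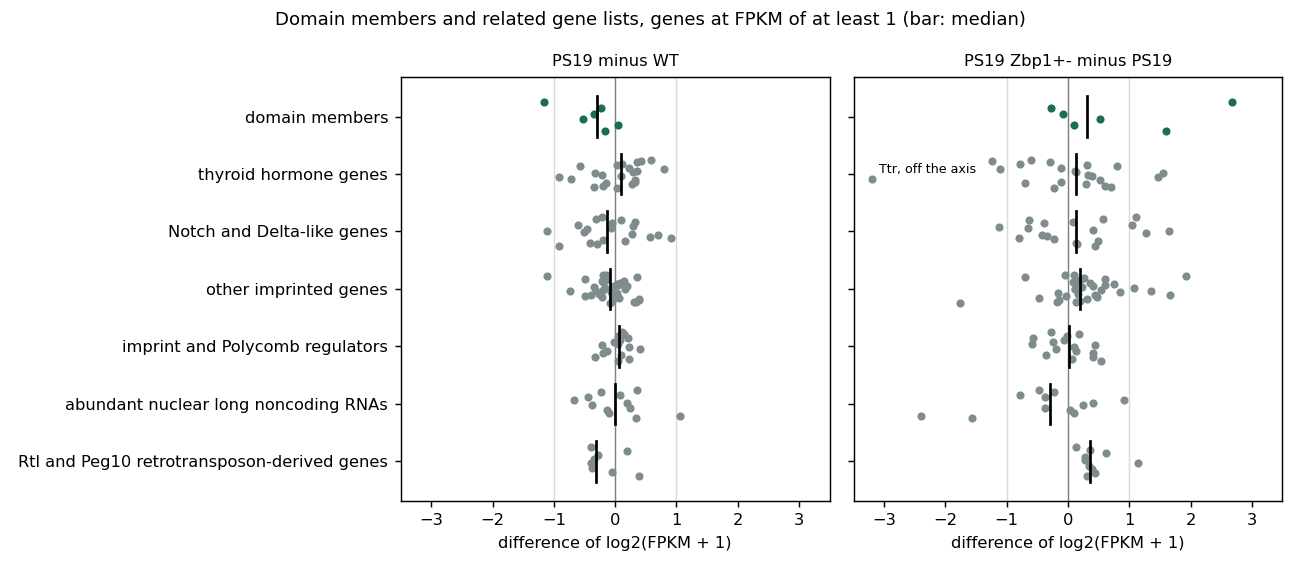
Difference of log2(FPKM + 1) for the 6 members (green) and for genes of 6 related lists (grey), 1 point per gene that reached an FPKM of 1 in at least 1 of the libraries compared, and a black bar at each median. Ttr, at -7.84 in PS19 Zbp1+- minus PS19, is drawn near the left edge and marked as off the axis, and the median of the members is -0.29 in the left panel and 0.31 in the right.

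Levels of cell type markers differed between the libraries as well, and their part in the domain's values was not tested. Summed FPKM of 6 pan-neuronal markers was 644 (WT), 540 (PS19) and 741 (PS19 Zbp1+-), and that of 4 CA1 markers was 149, 104 and 276, the same order as for Dio3. Sums of excitatory neurons (623, 573 and 890), Cajal-Retzius neurons (37.3, 17.3 and 40.7), endothelium (48.3, 47.6 and 58.3) and meningeal fibroblasts (21.4, 13.6 and 24.0) had this order too. So did the sum of hippocampal identity genes. Calb2, Cldn5 and Dcn led the Cajal-Retzius, endothelial and meningeal sums. Not every marker of these lists had that order. The pan-neuronal Snap25 (234, 180 and 197) and the CA1 marker Wfs1 (38.8, 27.1 and 28.0) were highest in WT. Dentate granule markers summed to 69.8, 53.8 and 46.8, CA3 markers to 73.5, 65.2 and 50.3, and interneuron markers to 457, 362 and 406. Each sum is led by the most abundant genes of its list, and single markers can have another order. The low interneuron sum in PS19 came from Sst (315, 201 and 257), whereas Gad2, Slc32a1 and Pvalb were higher in PS19 than in WT. C1ql2 (51.0, 34.0 and 37.5) led the dentate sum, whereas Prox1 was at 8.76, 9.51 and 5.20. Bok (53.3, 44.8 and 29.7) led the CA3 sum, whereas Grik4 was at 9.63, 9.22 and 13.6. Sums of astrocyte markers (348, 1163 and 382), microglial markers (122, 390 and 128) and oligodendrocyte markers (753, 1358 and 477) were highest in PS19. The microglial P2ry12 was highest in WT (11.2, 10.1 and 8.66), and Tmem119 was at 11.0, 12.4 and 10.2. Markers of oligodendrocyte precursors summed to 13.7, 16.2 and 17.7, highest in PS19 Zbp1+-, whereas Pdgfra of that list was lowest there (6.23, 6.09 and 4.90). Markers of new neurons and progenitors summed to 11.8, 7.71 and 11.0. Neurod1 (7.45, 4.30 and 6.95) and Sox11 (2.29, 1.54 and 2.74) led this sum. The proliferation markers Mki67 (0.230, 0.339 and 0.170) and Top2a (0.0579, 0.218 and 0.00701) were highest in PS19 and lowest in PS19 Zbp1+-. Dcx was at 1.25, 1.14 and 1.17, and Eomes at 0.572, 0.167 and 0. Hippocampal identity genes, among them Zbtb20 and Neurod2, summed to 114, 98.7 and 157, and were thus detected in each library. Markers of thalamus summed to 15.1, 42.0 and 8.96, and those of hypothalamus and midbrain to 4.11, 10.1 and 2.41, with Hcrt and Pmch at 0 in WT and PS19 Zbp1+-. The thalamic Slc17a6 was lowest in WT (2.98, 7.48 and 4.46), and Avp (1.81, 5.51 and 0.438) led the hypothalamic sum from 18, 55 and 4 reads. Sums lowest in PS19 Zbp1+- were those of thalamus, hypothalamus and midbrain, choroid plexus, ependyma (37.2, 31.0 and 8.94), oligodendrocytes, dentate granule neurons and CA3 neurons. Whether any of them bears on the Dio3 and Dlk1 levels was not tested.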

How the data were processed

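RNA from hippocampus was sequenced in 3 libraries, 1 per genotype, grouped by the genotype label. Per the labels' protocols, TRIzol was used for extraction and an NEB Next Ultra kit for the libraries. The submitters' processing notes name Trim Galore 0.6.5, STAR 2.5.3a, featureCounts 2.0.4 and the build mm39, but gene positions in the deposited table match GRCm38 (98.3% of 54495 gene IDs have the position of GENCODE M21), so the table's own positions are printed. The authors deposited FPKM values for each gene. Each value times gene length was a whole multiple of 1 step, within 0.05 reads, in 100% of values, so whole reads and library sizes (17253479, 17287957 and 15826984) were recovered from them.

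The difference of log2(FPKM + 1) was taken over genes of every biotype that reached an FPKM of 1 in 1 or both libraries. No p-value was computed with 1 library per genotype. Read ratios have exact 95% intervals, levels exact Poisson intervals, and the procedure was tested on simulated data. The members, lists and rules were chosen with earlier results of these data known. Named genes were the members, the interval and its neighbours, up to 4 genes of largest difference per list and comparison, Zbp1, and the 5 genes nearest to Dio3 and to Meg3. Dio2, Thra, Nrarp, Hr, Impact, Miat, Dnmt1 and Trim28 were also named after their values were seen. Alternatives were other pseudocounts, scalings, filters and thresholds. The scripts ran under Python 3.11.15 with scipy 1.17.1, pandas 2.3.3, numpy 2.4.6 and, for figures, matplotlib 3.10.9.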

Additional observations from a re-analysis of the deposited data

How the results depend on the processing

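With 1 library per genotype no replicate could be left out, and no paired analysis was possible because each genotype has only 1 library. Of 90 alternative values of the members' differences, 4 changed sign, all of them for Meg3: PS19 Zbp1+- against PS19 was -0.18 and against WT -0.0069 when rescaled to the same sum, and -0.084 and -0.0050 when scaled by total reads. Dio3 in PS19 Zbp1+- against PS19 was 3.34 with a pseudocount of 0.1. Dlk1 was 1.94 with that pseudocount and 1.38 when rescaled to the same sum, and 1.71 against WT with the pseudocount of 0.1. At a threshold of 4-fold 1 member was higher in PS19 Zbp1+- against PS19, and 0 were higher against WT. In PS19 against WT 0 were lower at 4-fold. That last count was also 0 with a mean FPKM of at least 5, a filter that leaves out Dio3 in this comparison.

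Counts over all genes, higher then lower, moved most. With a pseudocount of 0.1 they were 959 and 364 in PS19 against WT, 910 and 1746 in PS19 Zbp1+- against PS19, and 799 and 1007 in PS19 Zbp1+- against WT. With a mean FPKM of at least 5 they were 126 and 38, 240 and 273, and 136 and 117. With at least 50 reads summed over both libraries they were 295 and 52, 301 and 663, and 168 and 286. Over protein-coding genes they were 280 and 37, 255 and 659, and 133 and 283. At 1.5-fold they were 1252 and 668, 1742 and 2139, and 1392 and 1402, and at 4-fold 70 and 14, 61 and 164, and 66 and 92. Rescaled to the same sum, 325 genes were higher in PS19 Zbp1+- against PS19. Of the genes called, those higher made up 46.8% and 53.8% in the PS19 Zbp1+- comparisons at a mean FPKM of at least 5. Depth limits Dio3 in PS19 (42 reads), Rtl1 in PS19 (77 reads) and Dio3os (9 to 41 reads) most.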
